A study of Mus musculus with 10 samples.

Results

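The 10 genes described here encode the cytokines, receptors and feedback of signalling through gp130, the receptor subunit shared by the IL-6 family. They were selected by gene name, and all 10 were found among the 29268 genes of the deposited table. They are the ligands Lif, Osm and Il6, the receptors Lifr, Osmr, Il6ra and Il11ra1, gp130 itself (Il6st), the transcription factor Stat3 and the feedback inhibitor Socs3. RNA was sequenced from the whole uterus of female FVB/N mice aged 4 months, 5 HSD17B1TG and 5 WT, each giving 1 library. HSD17B1TG mice carry human HSD17B1 cDNA, encoding an enzyme that makes estradiol from estrone, as a heterozygous transgene under a chicken beta actin promoter with a CMV enhancer, which drives it in all tissues. WT mice do not carry the transgene, and the mouse annotation does not count the human transcript, so the genotype labels were not checked on it. Cycle stage was not matched between the groups, since only the WT females have estrous cycles, so genotype and cycle state cannot be told apart. In what follows TG1 to TG5 are the HSD17B1TG mice and WT1 to WT5 the WT mice, numbered by their order among the animal numbers.

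As background, ligands of this family bind a receptor of their own and then bring gp130 into the complex. LIF signals through LIFR with gp130, oncostatin M through OSMR with gp130 and, in part, through LIFR, and IL-6 and IL-11 through IL6RA and IL11RA1, each with gp130. The complex activates Janus kinases, which phosphorylate STAT3, and STAT3 induces Socs3, whose product binds gp130 and restrains further signalling. In the mouse uterus Lif is made in the glands in response to estrogen and is required for the embryo to implant, while Il11ra1 is required for the stroma to become decidua.

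The receptor gene for oncostatin M, Osmr, was 3.58-fold higher in HSD17B1TG than in WT and was the 1 gene of the 10 that passed the test (edgeR, adjusted p = 0.0442). Lif had a fold change of 3.26 and Lifr one of 2.63, with adjusted p of 0.0773 and 0.0641 by edgeR, above the threshold, while both passed it by DESeq2. Relative to the summed epithelium markers of the same mouse, the log2 difference was 0.73 for Osmr, 0.67 for Lif and 0.14 for Lifr, with overlap between the genotypes for all 3. Relative to the summed stroma markers it was 3.06, 3.01 and 2.47 in the same order, with overlap for Lif alone. Both scales were added after the data were seen and were not tested. The call of Osmr was lost when any of 7 of the mice was left out, with a log2 fold change of 1.60 to 1.87 in those 7 fits. The fold change of Stat3 was 1.27, that of gp130 0.968 and that of Socs3 0.86, and none of these 3 passed by either tool. Il11ra1 had the most negative difference of the 8 members tested, at 0.641-fold, with adjusted p = 0.14 by edgeR. Osm and Il6 were close to the limit of detection in both genotypes.

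Of the 10 genes, 8 passed the filter on low counts and were tested together with all 16993 genes that passed it. A gene counted as called when its adjusted p was under 0.05, it differed more than 2-fold and its mean FPKM exceeded 1 in at least 1 genotype, FPKM being fragments scaled by transcript length and library size. By that rule edgeR called 367 genes higher in HSD17B1TG, 2.16% of those tested, and 354 lower, 2.08%, against 1 of the 8 members higher and 0 lower. At an unadjusted p under 0.05 the members numbered 5 of 8, against 4430 of all 16993 genes tested. DESeq2 called 906 genes higher, 4.17% of 21712 with an adjusted p, and among them 3 members, Lif, Lifr and Osmr. It called 666 genes lower, 3.07%, and among them 0 members. The log2 fold change was positive in 5 members and negative in 3, with a median of 0.61, beside a median of 0.00 and 50.2% positive over all genes tested. FPKM did not overlap between the genotypes for 6.69% of the genes tested and for 2 of the 8 members, Lifr and Osmr. The libraries held 14817228 to 23271988 counts. Totals of the HSD17B1TG libraries, 16544864 to 19451715, lay inside the WT range, and a floor of 3 counts was 0.202 CPM (counts scaled to the library total) in the shallowest library.

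Promoter sequence was available from RefSeq (GRCm38.p6) for 9 of the 10 members, as windows from 250 bases before to 50 after a transcript start, 11 windows in all. The motif TTCNNNGAA, the form that STAT factors bind, was searched on both strands and was found in 1 of the 11, that of Socs3, 154 bases before its start. The same letters occurred in 8.30% of all 32851 promoter windows, and a match is a description of sequence and not of binding. The 13-base palindrome of the estrogen response element, searched likewise, occurred in none of the 11 windows and in 0.07% of all windows. The 250 bases before the start are shown for Socs3, the feedback gene with the STAT match, and for the 3 members with the largest fold changes, Lif, Osmr and Lifr (the first of its 2 starts). These RefSeq starts differ from the gene bounds of the deposited data, which are given with each gene below. By those bounds the windows of Socs3, Osmr and Lifr lie inside the gene, and that of Lif reaches into it. Capitals mark the STAT match, and each sequence runs 5′ to 3′ on the strand of its gene, from chr11:117969367-117969616 (minus) for Socs3, chr11:4257318-4257567 (plus) for Lif, chr15:6874314-6874563 (minus) for Osmr and chr15:7129322-7129571 (plus) for Lifr.
Socs3: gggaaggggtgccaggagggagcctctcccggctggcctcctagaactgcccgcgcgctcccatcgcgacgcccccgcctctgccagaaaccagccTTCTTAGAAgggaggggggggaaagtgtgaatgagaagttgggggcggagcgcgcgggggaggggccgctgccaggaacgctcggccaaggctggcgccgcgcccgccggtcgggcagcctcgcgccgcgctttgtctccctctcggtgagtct
Lif: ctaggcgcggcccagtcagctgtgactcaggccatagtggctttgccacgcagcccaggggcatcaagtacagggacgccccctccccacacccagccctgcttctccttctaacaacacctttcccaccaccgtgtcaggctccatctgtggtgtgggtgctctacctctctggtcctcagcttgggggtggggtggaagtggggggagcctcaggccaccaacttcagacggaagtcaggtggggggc
Osmr: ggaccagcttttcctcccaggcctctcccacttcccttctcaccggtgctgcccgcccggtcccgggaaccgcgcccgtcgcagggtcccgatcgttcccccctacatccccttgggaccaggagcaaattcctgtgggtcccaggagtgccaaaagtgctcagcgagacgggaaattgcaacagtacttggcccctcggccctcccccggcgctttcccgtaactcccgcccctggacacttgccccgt
Lifr: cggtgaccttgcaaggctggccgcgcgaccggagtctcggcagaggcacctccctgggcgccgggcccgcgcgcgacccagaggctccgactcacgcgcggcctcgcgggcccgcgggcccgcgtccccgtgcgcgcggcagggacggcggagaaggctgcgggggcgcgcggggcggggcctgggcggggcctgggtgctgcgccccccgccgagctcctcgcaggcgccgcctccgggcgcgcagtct

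Among the ligands, Lif (ENSMUSG00000034394, GRCm38 chr11:4257557-4272514, plus strand) was the one expressed clearly above the floor. Its FPKM was 3.03, 6.74, 7.69, 5.42 and 8.97 in TG1 to TG5 and 1.90, 0.593, 1.94, 4.65 and 0.673 in WT1 to WT5. Of the HSD17B1TG mice, 4 of 5 were above every WT mouse, and TG1 lay below WT4, the highest WT mouse. The means were 6.37 ± 2.27 and 1.95 ± 1.64 FPKM (SD, n = 5 each), from 246 to 629 counts per HSD17B1TG library and 49 to 418 per WT library. The log2 fold change was 1.71 (SE 0.54) with adjusted p = 0.0773 by edgeR and 0.0157 by DESeq2. The two-sided exact permutation test of log2(FPKM + 1) gave p = 0.0159, 1 of 10 such tests, in which the smallest possible p is 0.00794. With WT4 left out the edgeR log2 fold change of Lif was 2.31 with adjusted p = 0.0134, and with TG1 left out the adjusted p was 0.0494. Without any one of the other 8 mice its adjusted p by edgeR was 0.108 to 0.163.

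Osm, the oncostatin M gene, lies on the same strand 16530 bases upstream of Lif (ENSMUSG00000058755, chr11:4236420-4241026). It gave 3 to 12 counts per HSD17B1TG library and 2 to 15 per WT library, which put it under the filter on low counts. Its mean level was 0.201 ± 0.0799 FPKM in HSD17B1TG and 0.216 ± 0.112 in WT (SD, n = 5 each), with wide overlap, and the exact permutation test gave p = 0.849. No difference in Osm was detected, the DESeq2 log2 fold change being -0.11 (SE 0.56, adjusted p = 0.934). Il6 (ENSMUSG00000025746, chr5:30013114-30019981, plus strand) gave 1, 0, 0, 0 and 0 counts in TG1 to TG5 and 0, 1, 11, 0 and 0 in WT1 to WT5. In 9 of the 10 libraries Il6 was thus at or under 1 count, below the floor of 3, and no fold change is given. The exact permutation test for Il6 gave p = 0.722.

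The receptor genes Osmr and Lifr are neighbours on chromosome 15, with 215644 bases between them on opposite strands. Osmr (ENSMUSG00000022146, chr15:6813577-6874969, minus strand), which encodes the oncostatin M receptor, had an FPKM of 4.57, 8.62, 5.09, 6.28 and 9.65 in TG1 to TG5. In WT1 to WT5 it had 1.47, 0.708, 0.921, 4.30 and 2.18. All 5 HSD17B1TG mice were above all 5 WT mice, though WT4 came close to TG1. The means were 6.84 ± 2.21 and 1.91 ± 1.45 FPKM (SD, n = 5 each), and the exact permutation test gave p = 0.00794, the smallest the design allows. On the log2 scale Osmr differed by 1.84 (SE 0.46), with adjusted p = 0.0442 by edgeR and 0.0021 by DESeq2. The call of Osmr was held under all 8 other fits of the 10 mice. It was lost when TG2, TG4, TG5, WT1, WT2, WT3 or WT5 was left out, with adjusted p between 0.0782 and 0.0981 by edgeR, and kept without TG1, TG3 or WT4.

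Lifr (ENSMUSG00000054263, chr15:7090614-7197489, plus strand), the subunit that binds LIF and, in part, oncostatin M, had an FPKM of 7.71, 17.0, 8.87, 8.82 and 18.2 in TG1 to TG5. In WT1 to WT5 it had 4.02, 3.82, 1.47, 6.61 and 7.10. The genotypes did not overlap, and TG2 and TG5 stood above the other 3 HSD17B1TG mice, as they did for Osmr. The means were 12.1 ± 5.03 and 4.61 ± 2.29 FPKM (SD, n = 5 each), with an exact permutation p of 0.00794. Lifr had a log2 fold change of 1.39 (SE 0.41), with adjusted p = 0.0641 by edgeR and 0.0131 by DESeq2. It passed by edgeR without TG1 (adjusted p = 0.0448) or without WT4 (adjusted p = 0.0441), and had an adjusted p of 0.0661 to 0.149 without any one of the other 8. For context, the protein-coding genes on either side of the pair, chosen after their values were seen, are given beside it. Rictor had a log2 fold change of 0.08 (SE 0.12, adjusted p = 0.713 by edgeR), and Egflam one of -2.18 (SE 0.41, adjusted p = 0.0229 by edgeR) and was called lower.

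Il6ra (ENSMUSG00000027947, chr3:89864059-89913196, minus strand), the binding subunit for IL-6, had an FPKM of 5.52, 3.53, 2.23, 5.40 and 3.41 in TG1 to TG5 and 2.97, 1.12, 1.49, 3.43 and 2.01 in WT1 to WT5. In 3 of 5 HSD17B1TG mice it was above every WT mouse, by the widest margin in TG1 and TG4. The means were 4.02 ± 1.41 and 2.20 ± 0.977 FPKM (SD, n = 5 each), the log2 fold change was 0.87 (SE 0.34), and edgeR gave an adjusted p of 0.137. The exact permutation test for Il6ra gave p = 0.0476. Relative to the epithelium markers of the same mouse its log2 difference had the opposite sign, at -0.44, with overlap and no test. Relative to the stroma markers it was 1.90, without overlap and likewise with no test. An antisense gene shares 2.8% of its exon bases, and the strand setting of the counting is not given in the sources used here.

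Il11ra1 (ENSMUSG00000073889, chr4:41699989-41769474, plus strand), the IL-11 receptor needed for decidualization, had an FPKM of 19.1, 12.9, 8.98, 12.6 and 10.1 in TG1 to TG5. In WT1 to WT5 it had 15.7, 23.3, 27.6, 12.8 and 19.5. In 3 of 5 HSD17B1TG mice it lay below every WT mouse, while TG1 was above WT1 and WT4. The means were 12.7 ± 3.94 and 19.8 ± 5.91 FPKM (SD, n = 5 each), with a log2 fold change of -0.64 (SE 0.25), an adjusted p of 0.14 by edgeR and an exact permutation p of 0.0476. Without TG1 the adjusted p of Il11ra1 was 0.0482 by edgeR, and without any one of the other 9 mice it was 0.0631 to 0.269. The gene has a near-identical copy, Il11ra2, which was counted at no more than 4 reads per HSD17B1TG library and 7 per WT library, against 705 to 1993 for Il11ra1.

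The shared subunit gp130 had the highest mean FPKM of the 10 genes in both genotypes. Il6st (ENSMUSG00000021756, chr13:112464070-112510086, plus strand) had an FPKM of 53.3, 56.3, 43.2, 44.5 and 36.9 in TG1 to TG5 and 72.9, 36.1, 49.5, 49.2 and 33.8 in WT1 to WT5. The HSD17B1TG mice lay within the WT range, at 46.8 ± 7.88 against 48.3 ± 15.5 FPKM (SD, n = 5 each). The log2 fold change was -0.05 (SE 0.22) with an adjusted p of 0.917 by edgeR and an exact permutation p of 0.968, and its sign turned when TG5 or WT1 was left out.

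Stat3 (ENSMUSG00000004040, chr11:100885098-100939540, minus strand), the transcription factor activated by gp130, had an FPKM of 30.3, 33.9, 26.8, 29.996 and 29.5 in TG1 to TG5 and 26.8, 11.8, 22.7, 35.8 and 20.9 in WT1 to WT5. The HSD17B1TG values were packed between the WT extremes, and all 5 were above the WT median. The means were 30.1 ± 2.52 and 23.6 ± 8.73 FPKM (SD, n = 5 each), so that the coefficient of variation was 8.39% in HSD17B1TG and 37.0% in WT, a difference in spread that was not tested. For Stat3 the log2 fold change was 0.35 (SE 0.24), with an adjusted p of 0.39 by edgeR and an exact permutation p of 0.135. Stat5a, on the other strand, shares 0.756% of its exon bases.

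Socs3 (ENSMUSG00000053113, chr11:117966079-117970047, minus strand), the feedback inhibitor with the STAT match in its promoter, had an FPKM of 9.30, 8.81, 9.06, 5.08 and 4.58 in TG1 to TG5. In WT1 to WT5 it had 9.40, 6.41, 8.66, 10.4 and 7.87. TG4 and TG5 were below every WT mouse and the other 3 lay inside the WT range. The means were 7.37 ± 2.33 and 8.54 ± 1.502 FPKM (SD, n = 5 each), with a log2 fold change of -0.22 (SE 0.23), an adjusted p of 0.596 by edgeR and an exact permutation p of 0.317. Neither Stat3 nor Socs3 was thus called in either direction.

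**Figure D1:**
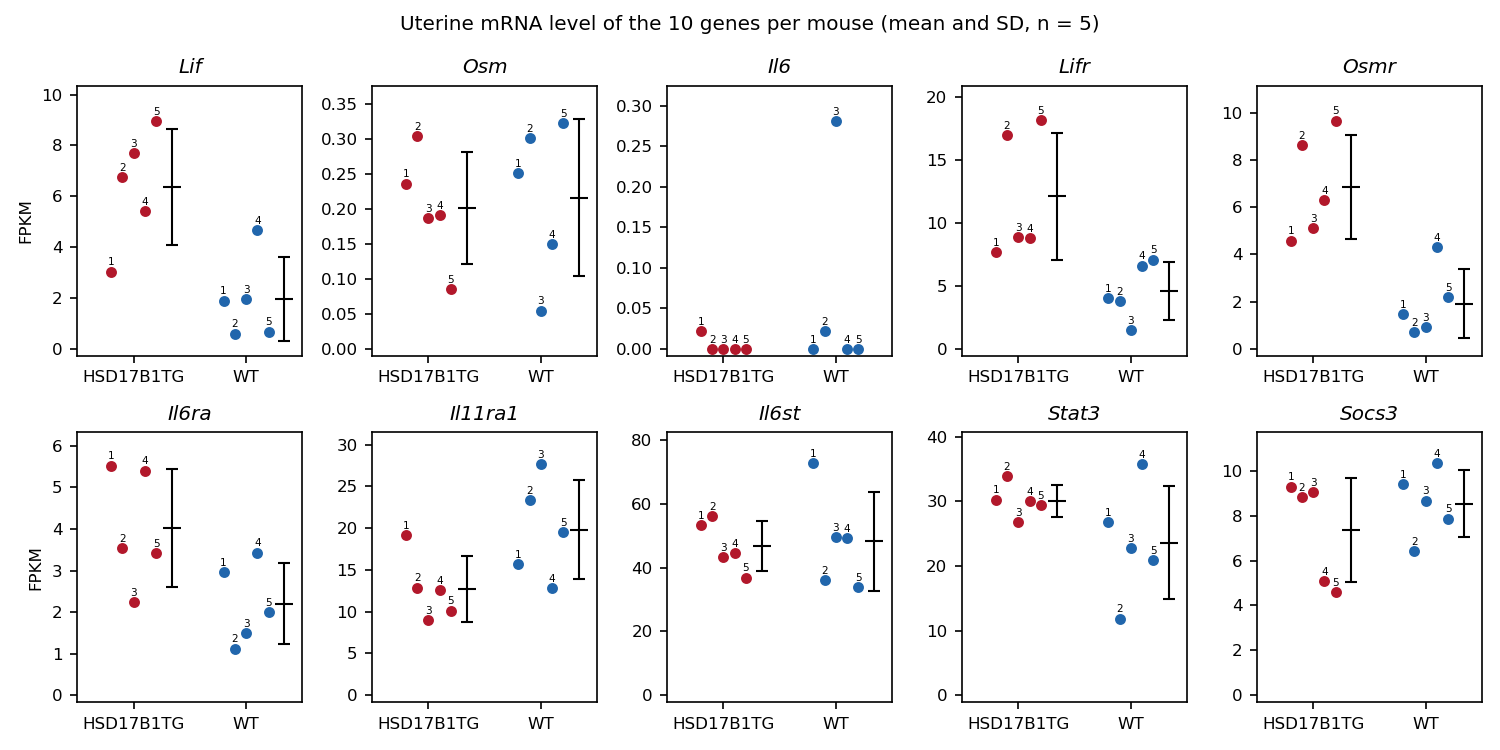
FPKM of each of the 10 genes in the uterus of each mouse, with HSD17B1TG in red and WT in blue. The digit beside each point is that of TG1 to TG5 or WT1 to WT5, and the mean with the SD is at the right of each group except for Il6. Osmr and Lifr do not overlap between the genotypes, Lif overlaps through TG1 and WT4, and Il6 is at 0 in 7 of 10 libraries.

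**Figure D2:**
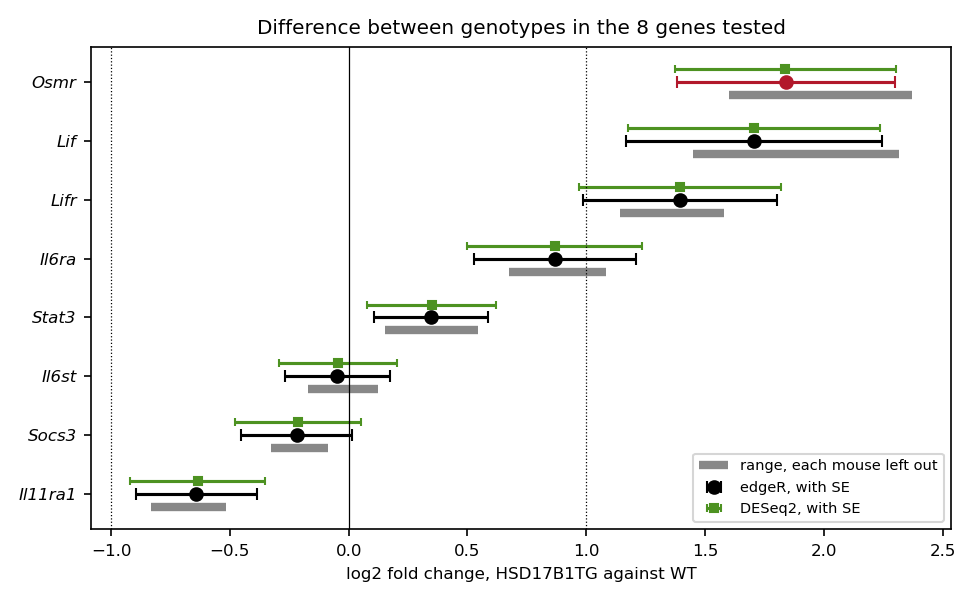
The log2 fold change of HSD17B1TG against WT for the 8 genes tested, by edgeR (circles, with SE, red where called) and DESeq2 (green squares, with SE), with grey bars for the range of the edgeR value when each mouse is left out. Dotted lines mark a 2-fold change, and Osmr at 1.84 is the one gene called by edgeR, while Il6st at -0.05 spans 0.

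Levels per transcript length were ordered alike at the top in both genotypes. In HSD17B1TG mice the mean FPKM fell from Il6st through Stat3, Il11ra1, Lifr, Socs3, Osmr, Lif and Il6ra to Osm and Il6. From Il11ra1 to Il6ra the ranges of neighbours in that order overlapped, and only Il6st, Stat3, Il6ra and Osm stood clear of the next gene. In WT mice the order was Il6st, Stat3, Il11ra1, Socs3, Lifr, Il6ra, Lif, Osmr, Osm and Il6, and only Il11ra1 and Osmr stood clear of the next gene. Lifr and Osmr thus had a higher place in HSD17B1TG mice, Socs3 and Il6ra a lower one and Lif the same, with no test of the order.

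FPKM is scaled by gene length, so the level of each receptor could be set against that of gp130 within the same mouse, a ratio that does not depend on the scaling of the library. The question was whether the ligand-binding subunits kept their proportion to the shared subunit. Osmr was 8.59%, 15.3%, 11.8%, 14.1% and 26.2% of the Il6st level in TG1 to TG5 and 2.02%, 1.96%, 1.86%, 8.74% and 6.44% in WT1 to WT5. The genotypes overlapped through TG1 and WT4 alone. The mean log2 ratio of Osmr to Il6st was higher by 2.09 in HSD17B1TG, a 4.25-fold difference (exact permutation p = 0.0159, and 0.0595 after Benjamini-Hochberg adjustment over the 6 ratios compared).

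Lifr was 14.5% to 49.3% of the Il6st level in HSD17B1TG mice, with a median of 20.5%, and 2.98% to 21.01% in WT mice, with a median of 10.6%. Its log2 ratio to Il6st was higher by 1.497 (exact permutation p = 0.0317, adjusted 0.0595). Il6ra was 5.17% to 12.2% of Il6st in HSD17B1TG and 3.003% to 6.97% in WT, a log2 difference of 0.92 (exact permutation p = 0.0397, adjusted 0.0595). Il11ra1 went from a median of 55.9% of Il6st in WT to 27.5% in HSD17B1TG, but its ranges overlapped and the log2 difference of -0.63 did not pass (exact permutation p = 0.135). The 2 receptors that oncostatin M can use did not differ in proportion to each other beyond the spread, the log2 ratio of Osmr to Lifr being higher by 0.59 in HSD17B1TG (exact permutation p = 0.135).

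The ratio of Socs3 to Stat3 compares the feedback gene with its activator. It was 30.7%, 26.02%, 33.8%, 16.9% and 15.5% in TG1 to TG5 and 35.0%, 54.1%, 38.1%, 28.9% and 37.6% in WT1 to WT5. The 5 HSD17B1TG mice were below the WT median, and the log2 ratio was lower by 0.69 on average (exact permutation p = 0.0317, adjusted 0.0595). None of the 6 ratios was under 0.05 after adjustment.

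**Figure D3:**
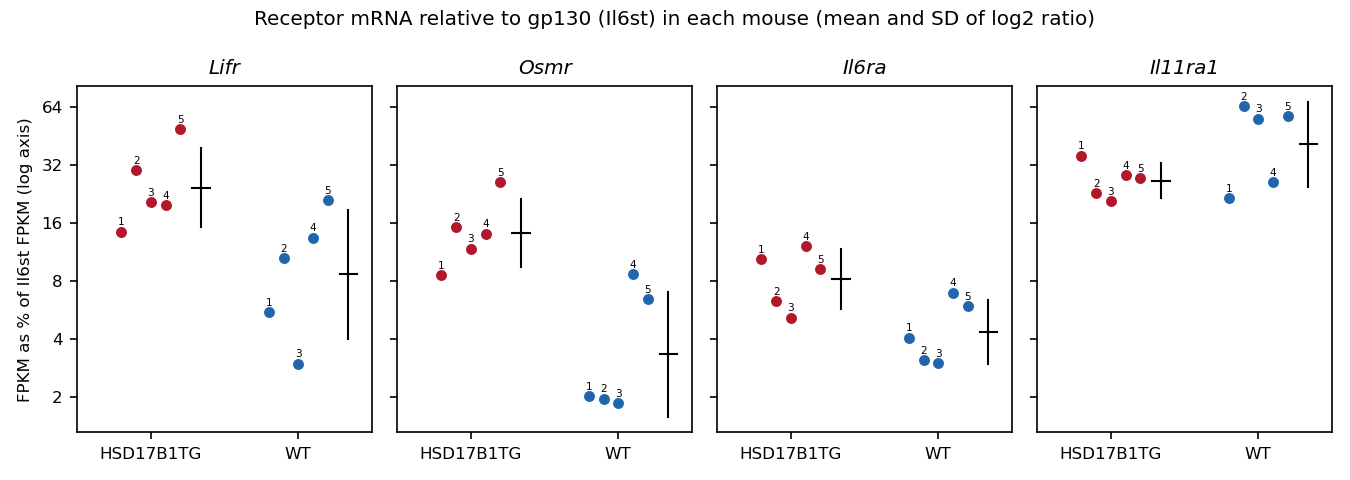
Level of Lifr, Osmr, Il6ra and Il11ra1 as a percentage of the Il6st (gp130) level in the same mouse, on a log2 axis shared by the 4 panels, with the mean and SD of the log2 ratio as black bars. Osmr lies at 1.86% to 8.74% in WT and at 8.59% to 26.2% in HSD17B1TG, while Il11ra1 lies at 21.5% to 64.6% in WT and at 20.8% to 35.9% in HSD17B1TG.

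The other genes of the pathway were taken as 6 lists, described by counts and medians with no test of a list. Of 12 other gp130 ligands and receptors, 8 were tested and 0 were called in either direction by edgeR or DESeq2, with a median log2 fold change of 0.10. The smallest p-values in that list were those of Cntfr, the CNTF receptor, at 1.69 (SE 0.61, adjusted p = 0.112 by edgeR and 0.0458 by DESeq2), and of Il11, the ligand of Il11ra1, at -0.65 (SE 0.44, adjusted p = 0.384 by edgeR). Both of these genes were below 1 FPKM on average in each genotype, which keeps Cntfr from being called by DESeq2. Of the sheddases that release IL-6 receptor from the membrane, Adam10 had a log2 fold change of 0.41 (adjusted p = 0.148 by edgeR) and Adam17 one of 0.10 (adjusted p = 0.658 by edgeR).

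All 10 Janus kinases and other STATs were tested, and 0 were called at the 2-fold limit by either tool, with 8 positive and a median log2 fold change of 0.43. Without that limit 2 of the 10 passed an adjusted p of 0.05 by edgeR, against 6.16% of all genes tested. Stat6, the effector of IL-4 signalling, rose by a log2 fold change of 0.50 (adjusted p = 0.0379) with no overlap, from 18.7 to 24.3 FPKM in WT and 27.2 to 34.3 in HSD17B1TG. Stat2, an effector of interferon signalling, rose by 0.95 (adjusted p = 0.0444), from 4.49 to 9.27 FPKM in WT and 8.35 to 17.1 in HSD17B1TG. Of 13 other SOCS, PIAS and phosphatase genes 0 were called by either tool, and the log2 fold changes of the 2 with the smallest p, Socs7 and Socs1, were -0.32 (adjusted p = 0.25) and -0.63 (adjusted p = 0.362).

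Among 22 genes that STAT3 is known to induce, 21 were tested, and edgeR called 0 higher and 2 lower, beside 2.16% and 2.08% of all genes tested, with 14 positive and a median of 0.34. DESeq2 called 1 higher and 2 lower. Myc, a growth-promoting transcription factor, fell by 1.25 on the log2 scale (SE 0.33, adjusted p = 0.0498 by edgeR), and Steap4, a metalloreductase, fell by 2.60 (SE 0.66, adjusted p = 0.046 by edgeR). WT4 lay within the HSD17B1TG range for Myc at 11.7 FPKM, where the other WT mice had 27.4 to 53.7. Steap4 had 3.30 to 9.02 FPKM in HSD17B1TG and 5.48 to 89.8 in WT. The acute-phase gene Lrg1, named after its values were seen, had 32.6 to 81.9 FPKM in HSD17B1TG and 0.636 to 24.8 in WT, with a log2 fold change of 2.80 (adjusted p = 0.0511 by edgeR and 0.00136 by DESeq2). Pim1, named likewise, did not overlap either, at 25.2 to 51.6 FPKM in HSD17B1TG and 5.12 to 23.7 in WT. Its log2 fold change was 1.16 (adjusted p = 0.104 by edgeR and 0.0522 by DESeq2). Without WT4 edgeR called 3 of the list higher, Lrg1, Cebpb and Lcn2. Calls in the lower direction numbered 0 to 2 when each mouse was left out in turn.

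Of 16 implantation genes 14 were tested, and edgeR called 6 of them lower and 0 higher, beside 2.08% and 2.16% of all genes tested. Of the 14, 5 had a positive log2 fold change, and the median was -1.18. In the same mice 4 of 9 stroma markers were called lower by edgeR and 6 by DESeq2, and 1 of 9 had a positive log2 fold change. Of the 4, Hoxa11 is itself an implantation gene. The others had log2 fold changes by edgeR of -1.99 for Pdgfra, -2.08 for Thy1 and -1.46 for Col3a1. Lum went the other way at 0.51 (adjusted p = 0.518 by edgeR), and Dcn was at -0.10 (adjusted p = 0.915 by edgeR). The part of the stroma in the 6 implantation genes called lower was not tested. Of the implantation genes DESeq2 called 5 lower, without Acod1, for which it gave no adjusted p, and 1 higher, the mucin gene Muc1 (log2 fold change 2.28 by edgeR, adjusted p = 0.0982 by edgeR and 0.0162 by DESeq2). Hoxa10 and Hoxa11, homeobox genes of the uterine stroma, fell by 2.14 (SE 0.44, adjusted p = 0.0268 by edgeR) and 2.36 (SE 0.43, adjusted p = 0.0224). Msx1, a homeobox gene of the receptive epithelium, fell by 2.88 (SE 0.50, adjusted p = 0.0207), and Hand2, a progesterone-induced stromal factor, fell by 1.998 (SE 0.33, adjusted p = 0.0177), both with no overlap between genotypes. Ihh, the epithelial hedgehog ligand induced by progesterone, fell by 5.28 (SE 1.39, adjusted p = 0.0498), with WT values from 0.0794 to 20.6 FPKM. Acod1 fell by 5.28 (SE 1.38, adjusted p = 0.0493), with most of its WT level in WT3 at 24.7 FPKM. The number called lower ranged from 0 without TG5 to 6 without WT4.

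**Figure D4:**
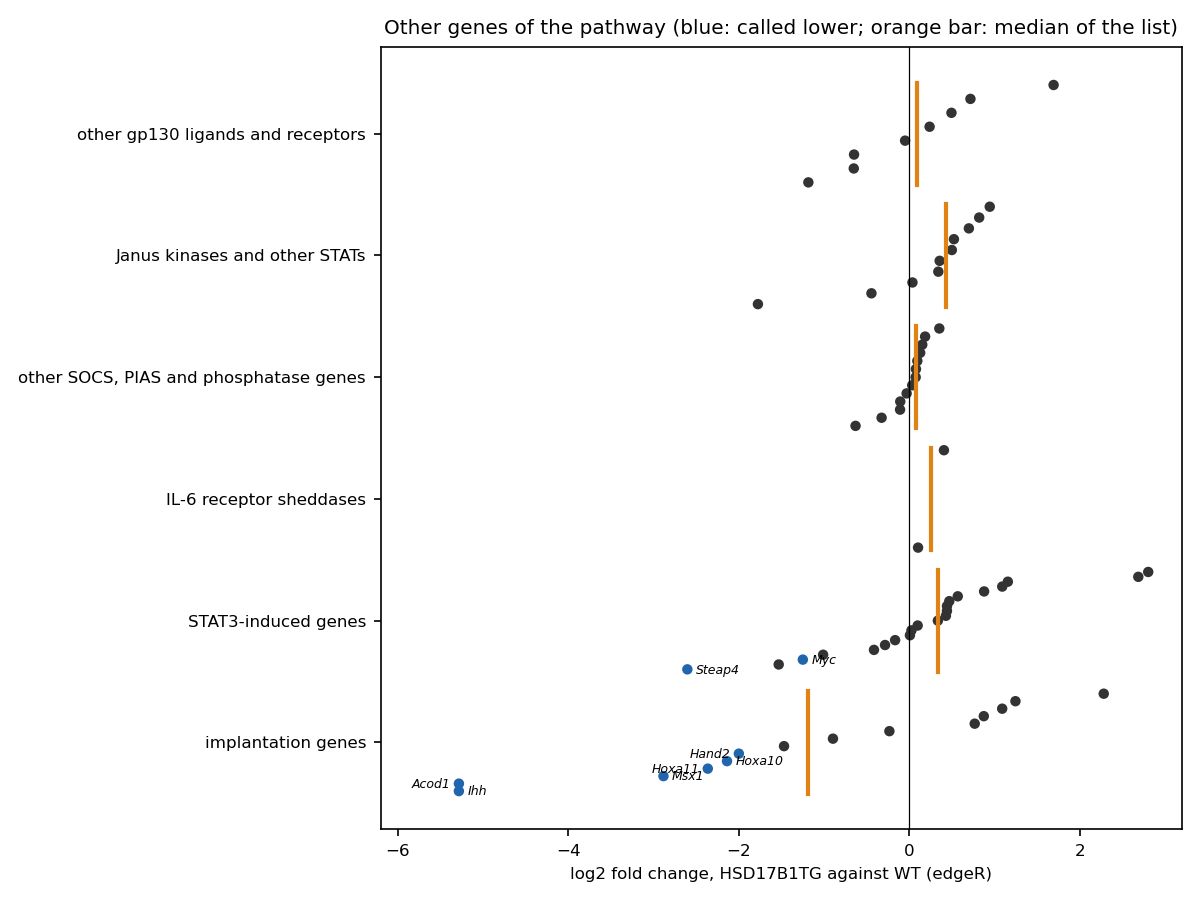
The edgeR log2 fold change of each tested gene in the 6 lists of other pathway genes, 1 point per gene, with genes called lower in blue and named and the median of each list as an orange bar. The called genes are 2 of the STAT3-induced and 6 of the implantation genes, and the medians run from -1.18 to 0.43.

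The uterus is a mixture of cell types, and in bulk RNA fewer cells of a type and less RNA per cell cannot be told apart. All 9 epithelium, 9 stroma and 8 smooth muscle markers passed the filter on low counts, so the markers of the labelled tissue were present. Sums are given for HSD17B1TG first and WT second. Hoxa11 is both a stroma marker and an implantation gene, and Foxa2 both a gland marker and an implantation gene. The summed FPKM of the epithelium markers was 702 to 3263 in HSD17B1TG and 396 to 1727 in WT, with 9 of 9 positive, 0 called by edgeR and 3 called higher by DESeq2 (Cdh1, Cldn4 and Cldn7). Stroma markers summed to 536 to 1989 in HSD17B1TG and 1816 to 2201 in WT, with the calls given above. Smooth muscle markers summed to 867 to 7350 and 407 to 5776, the highest values being those of TG1 and WT4, with 0 of 8 called by either tool. Neutrophil markers summed to 10.1 to 18.01 in HSD17B1TG and 0.882 to 6.27 in WT without overlap, though of 10 markers only 5 passed the filter, with 0 called by edgeR and 2 called higher by DESeq2 (S100a9 and Mmp9). Macrophage markers summed to 171 to 294 and 141 to 221, with 1 of 9 called higher by either tool. T and NK cell markers summed to 4.36 to 9.66 and 7.21 to 32.8, with 2 of 7 tested called lower by both tools and 1, Trac, called higher by DESeq2. Gland markers summed to 1.16 to 6.09 and 2.31 to 103, endothelium markers to 33.2 to 124 and 59.2 to 128, and adipocyte markers to 4.75 to 46.6 and 0.252 to 11.4, with 0 called by edgeR, which tested 3 of 7 gland, 7 of 7 endothelium and 2 of 6 adipocyte markers. DESeq2 called 3 gland markers lower (Cxcl15, Spink1 and Wfdc3), 1 endothelium marker lower (Emcn) and 1 adipocyte marker higher (Fabp4). Of the 10 neutrophil markers, Mmp8 and Elane were not analysed here, and no marker with values was at 0 in all 10 libraries.

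The levels of Lif, Lifr and Osmr were set beside the epithelium markers of the same mouse. TG1 had the lowest epithelium sum of the HSD17B1TG mice (702) and the lowest Lif, Lifr and Osmr of that genotype, and TG5 had the highest of all 4. WT4 had the highest epithelium sum of the WT mice (1727) and the highest Lif and Osmr of that genotype. Per 1000 FPKM of epithelium markers, a measure added after the data were seen and given with no test, Lif was 2.75 to 4.32 in HSD17B1TG and 0.813 to 4.90 in WT. Osmr was 2.01 to 6.51 and 0.971 to 4.62, and Lifr was 3.50 to 10.98 and 3.72 to 15.1. Il6ra was 0.881 to 7.87 in HSD17B1TG and 1.54 to 4.25 in WT. Per 1000 FPKM of stroma markers Osmr and Lifr did not overlap between the genotypes, at 2.30 to 18.02 against 0.390 to 2.20 for Osmr and 3.88 to 33.9 against 0.680 to 3.38 for Lifr. Il6ra did not overlap on that scale either, at 2.69 to 6.37 against 0.617 to 1.75, while Lif overlapped, at 1.53 to 16.7 against 0.306 to 2.38. What part the mixture of cells had in the levels of Lif, Lifr, Osmr and Il6ra was not tested.

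**Figure D5:**
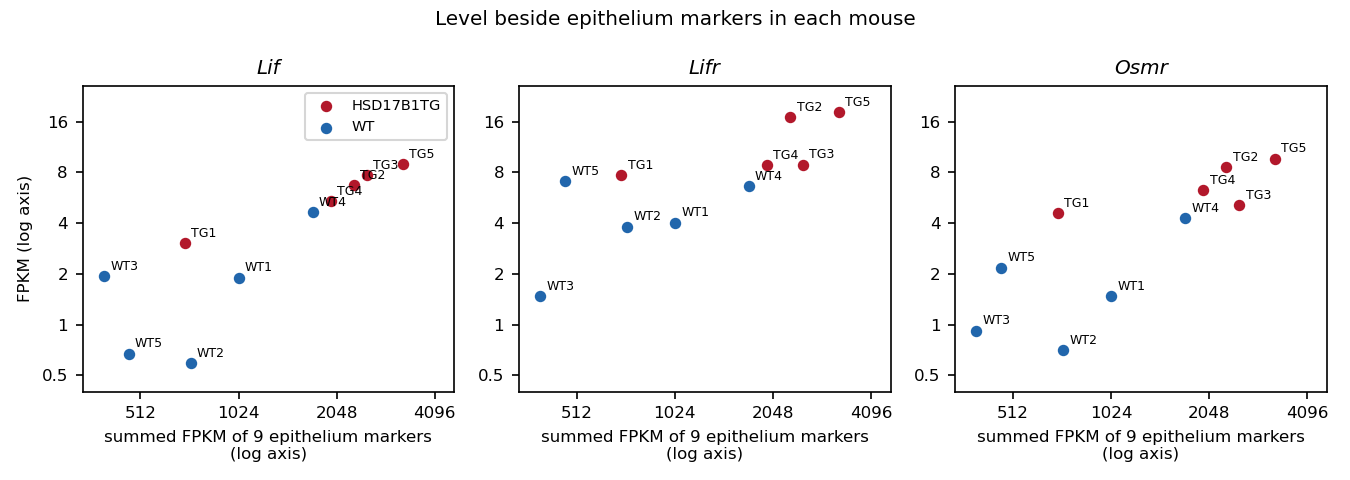
FPKM of Lif, Lifr and Osmr against the summed FPKM of 9 epithelium markers in each mouse, both on log2 axes, with HSD17B1TG in red and WT in blue. TG1 and WT4 lie away from the rest of their genotype on both axes for Lif, and WT5 has a Lifr of 7.10 at an epithelium sum of 471.

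The genes whose level varied most like that of Lif or Socs3 within genotypes were listed. After the mean of each genotype was subtracted, log2 CPM of 12669 protein-coding genes were correlated with each of the 2 over the 10 mice, which differ in depth and in their marker sums, as a description with no p. High values are to be met at the top of so many correlations over 10 mice, and the 2 lists were not compared by a test. The 5 genes most like Lif were Nat2 (r = 0.943), Skap2 (0.934), Ckmt1 (0.930), Tspo (0.927) and Rac1 (0.927). The 5 most like Socs3 were Foxs1 (r = 0.955), Prrx2 (0.947), Prdx3 (0.940), Col24a1 (0.937) and Psmb7 (0.934). Of the members, Lif varied most closely with Stat3 (r = 0.749) and Osmr (0.614) and least with Lifr (0.125), and it ran against Il11ra1 (-0.661). Socs3 varied most closely with Il6st (r = 0.586) and had an r of 0.205 with Lif.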

How the data were processed

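RNA-seq was available for the uterus of 5 HSD17B1TG and 5 WT mice. The authors sequenced paired-end libraries of 150 bp reads and mapped them with HISAT2 2.0.5, per the submitters' processing notes, to mouse GRCm38 with Ensembl gene models. Which program counted the reads, and with which strand setting, is not given in the sources used here. The authors deposited raw counts per gene and mouse, the signal, which is the count divided by 1 size factor per mouse, and FPKM scaled by the same factor. Fold changes and p-values of the authors' own comparison were not used. The labels give no batch and no replicate numbers, and samples are separate animals.

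Counts were tested with edgeR 4.0.16 (quasi-likelihood, TMM, default filter on low counts, Benjamini-Hochberg over all genes tested) in R 4.3.3. DESeq2 1.42.0, limma 3.58.1 (voom and log2(FPKM + 1) or + 0.1), other scalings, no filter, no fold limit and each mouse left out in turn were alternatives. Scripts were tested on simulated data. Single genes and ratios of FPKM were tested by exact permutation over all 252 assignments of 5 of the 10 mice. Named genes were all members, the called genes of each list or else the 2 with the smallest p, and the 5 most like Lif and Socs3. The members and lists were chosen with earlier results of these data known. Intervals of depth cover counting error only.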

Additional observations from a re-analysis of the deposited data

Results flagged for a closer look

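Of 32 groups of 5 mice tested for a value far from the rest (10 genes and 6 ratios in each genotype), 2 were singled out, both for Il6. Chance singles out about 1 in 20 groups of measured values, but that rate does not hold at such low counts, since with the other 4 mice at 0, as for TG1, any single count is singled out. TG1 had an Il6 level of 0.0221 FPKM, which is 1 count, where the other 4 HSD17B1TG mice had 0. WT3 had 0.281 FPKM, which is 11 counts, where the other 4 WT mice had 0 or 1 count.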

How the results depend on the processing

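The number of genes called depended on the test and on single mice. DESeq2 called 906 higher and 666 lower, and an adjusted p alone gave 568 higher. Limma gave 228 lower on log2(FPKM + 1) and 189 with voom. Leaving out each mouse gave 38 (TG5 or WT2) to 888 (WT4) higher and 27 (TG5) to 666 (WT4) lower. Without TG3 the count of 367 higher was the same number. The number of members called higher was 3 by DESeq2, 2 by limma at either pseudocount and 0 to 3 with each mouse left out, being 3 without TG1 or WT4, 1 without TG3 and 0 without any other. Members called lower numbered 0 in every alternative run.

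In the fits across all genes no member reversed except Il6st, whose log2 fold change was 0.12 without WT1 and 0.03 without TG5, within a range of -0.17 to 0.12 when each mouse was left out. Scaling by library totals moved the median of all genes by -0.18 and changed the sign of no member. Relative to the epithelium markers, a scale added after the data were seen, Il6ra turned to -0.44, while relative to the stroma markers it was 1.90. Counts of list genes under other settings were added after the data were seen. STAT3-induced genes called higher were 1 by DESeq2, by totals, by voom and at either pseudocount, and 0 to 3 with each mouse left out. Those called lower were 1 with DESeq2's size factors in edgeR, 0 by voom and at either pseudocount, and 0 to 2 with each mouse left out. Implantation genes called lower were 0 to 6. With each mouse left out, the log2 ratio difference ranged from 0.33 to 0.78 for Osmr to Lifr (exact permutation p from 0.0476 without WT4 to 0.27), 0.78 to 1.09 for Il6ra to Il6st (p up to 0.0714), 1.11 to 1.82 for Lifr to Il6st (p up to 0.0794) and -0.83 to -0.55 for Socs3 to Stat3 (p up to 0.0714). Osmr to Il6st had an exact permutation p under 0.05 in 10 of 10. With 1 added to each FPKM, Osmr to Lifr was 0.25 (exact permutation p = 0.341) and Il6ra to Il6st 0.66 (p = 0.0476). The cause of these changes was not tested. No paired analysis was run, since the samples are separate animals and the labels link no HSD17B1TG mouse to a WT mouse. Depth limits Osm and Il6.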
